A study of Mus musculus with 6 samples.

Results

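The messenger RNAs of NRF2 (gene symbol Nfe2l2), of its repressor Keap1 and of 8 classical NRF2 target genes (Nqo1, Hmox1, Gclc, Gclm, Txnrd1, Srxn1, Prdx1 and G6pdx) were followed in NIH3T3, a cell line long established from fibroblasts of mouse embryos. The genes were chosen by symbol, through the GENCODE annotation of the Ensembl identifiers in the deposited tables, from an established pathway, with earlier results of these data known. All 10 were found among the 24938 genes listed, and all 10 passed the filter on low values that left 12222 genes for testing. In 3 libraries the cells overexpressed F-CircAE, a fusion RNA in circular form (a transcript whose ends are joined) related to AML1-ETO, a leukaemia fusion gene. The 3 other libraries came from wild type NIH3T3 cells. The labels do not say whether wild type cells carried an empty vector, so effects of the overexpression procedure and of the circular RNA cannot be told apart. Nothing in the labels ties the replicates to separate cultures, and p-values therefore reflect only how far these libraries spread, which may be technical.

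NRF2 is a transcription factor of the cap'n'collar family that pairs with small MAF proteins on antioxidant response elements in the promoters and enhancers of its targets. In unstressed cells KEAP1, an adaptor of a CUL3 ubiquitin ligase, holds NRF2 in the cytoplasm and directs its degradation. Electrophiles and oxidants modify cysteines of KEAP1, NRF2 protein escapes degradation, and its targets are transcribed, so the amount of Nfe2l2 mRNA need not follow the activity of the protein. Protein was not measured in these libraries.

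Recovered reads per library numbered 16942046 to 21808113. The 10 genes held 607 to 14057 reads in a library, and counting error alone amounts to 4.06% for the lowest of these and 0.843% for the highest. Reads cover counting error only, since amplified reads are not independent molecules. Wild type replicates 1 and 2 were close to counting noise, with a chi-square per gene of 1.46 where counting alone gives 1. In the other 14 pairs of libraries it ran from 5.16 to 25.1. Wild type replicate 3 gave 20.97 and 21.04 with wild type replicates 1 and 2. It gave 14.2, 11.05 and 8.61 with overexpression replicates 1, 2 and 3, so by this measure it lay closer to the other group. Overexpression replicate 1 gave 14.7 and 18.0 with overexpression replicates 2 and 3. With wild type replicates 1 and 2 it gave 25.1 and 24.8. If wild type replicates 1 and 2 share an RNA or a culture, the wild type SDs and the intervals below are too small. Fibroblast markers were present, with 9 of the 10 analysed (11 listed) above 1 FPKM in every library. Their summed level was 1752, 2168 and 2155 FPKM in overexpression replicates 1, 2 and 3 and 2513, 2503 and 1964 FPKM in wild type replicates 1, 2 and 3. The summed levels of the epithelial, blood, endothelial and muscle markers each stayed between 0.585 and 6.76 FPKM. Most of the blood sum was Cd68, at 4.32 to 6.34 FPKM over all libraries, and most of the epithelial sum was Cdh1, at 2.19 to 2.82 FPKM. Ptprc of blood stayed at or below 0.0117 FPKM and Krt5 of epithelium at or below 0.0489 FPKM, whereas Epcam, Cd3e, Kdr, Myod1 and Lum were not analysed here.

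None of the 10 genes passed the test between F-CircAE overexpression and wild type cells. At an adjusted p below 0.05 (limma, Benjamini-Hochberg over all tested genes) 0 of 10 were called, where 0 of 12222 genes (0%) were called in all. At an unadjusted p below 0.05 the count was again 0 of 10, beside 632 of 12222 genes (5.17%, with 2.86% higher and 2.31% lower). Limma-voom on recovered reads called 0 of the 10 genes and 0 of 14418 genes, 736 of which had an unadjusted p below 0.05. The log2 fold changes of FPKM + 1 ran from -0.20 for Hmox1 to 0.16 for G6pdx, with a median of 0.019 beside 0.0084 over all tested genes. The libraries of the 2 groups did not overlap for 1 of the 10 genes, G6pdx, which was higher with overexpression. Among all tested genes 11.5% did not overlap, 6.81% being higher and 4.69% lower with overexpression. The differences that stood out lay within the groups. Overexpression replicate 1 and wild type replicate 3 were the 2 libraries with the highest levels in 7 of the 10 genes, a pattern described after the values were seen. The same held for 1604 of 12222 tested genes (13.1%).

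**Figure D1:**
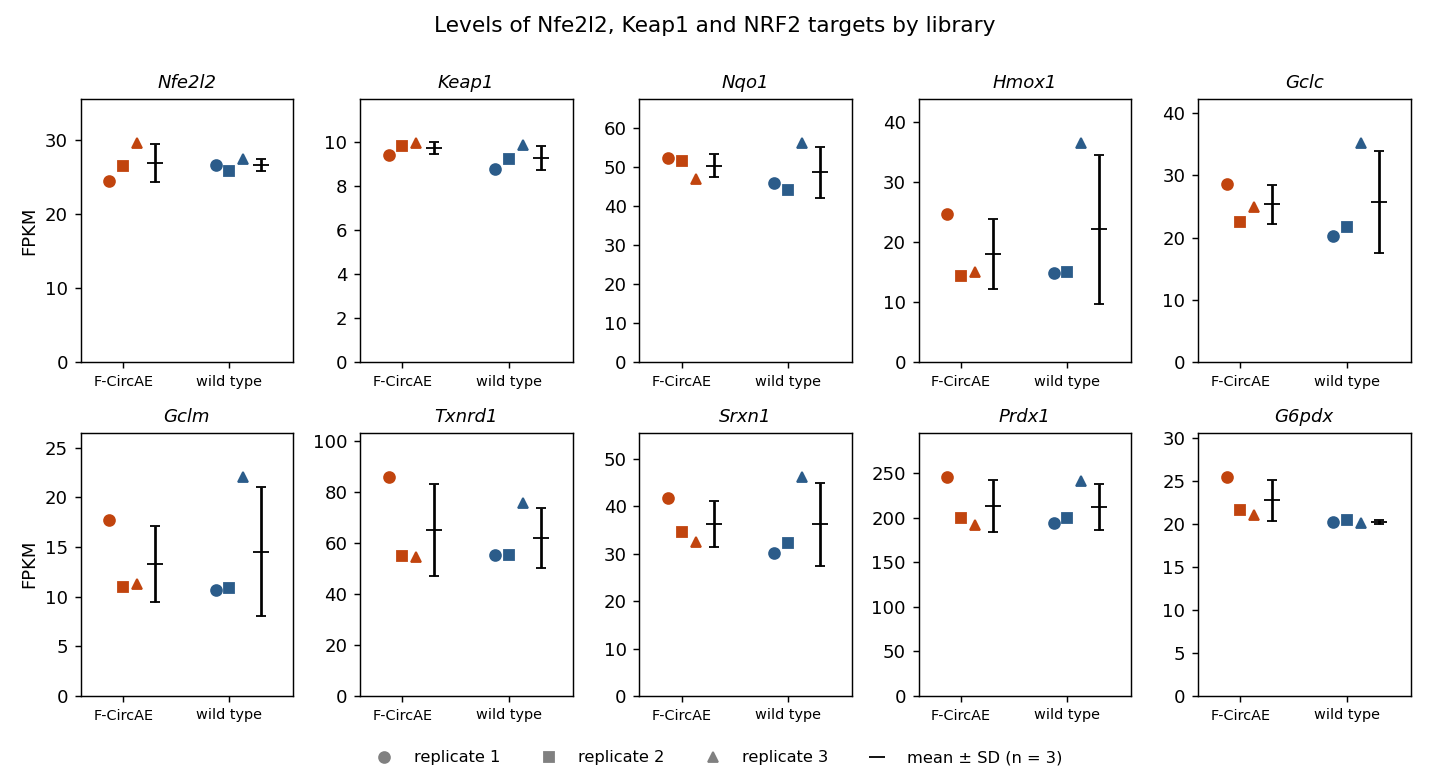
FPKM (vertical axes, from 0) of the 10 genes in each library, with F-CircAE overexpression left of wild type in every panel. Symbols are replicates 1, 2 and 3, and bars are the mean ± SD (n = 3). Overexpression replicate 1 and wild type replicate 3 hold the highest levels of Hmox1, Gclc, Gclm, Txnrd1, Srxn1, Prdx1 and Nqo1.

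Nfe2l2 and Keap1, the regulators, were among the steadiest of the 10 genes. Nfe2l2 (ENSMUSG00000015839, mm10, chromosome 2, 75675513 to 75704641) stood at 24.5, 26.6 and 29.6 FPKM in overexpression replicates 1, 2 and 3 and at 26.7, 25.9 and 27.6 FPKM in wild type replicates 1, 2 and 3. The overexpression libraries spanned the whole wild type range, and replicate 1 and replicate 3 of that group were the lowest and the highest of all 6. Its log2 fold change of 0.0061 (standard error 0.078) had a 95% interval of -0.18 to 0.19 (limma adjusted p = 0.994). Keap1 (ENSMUSG00000003308, chromosome 9, 21229730 to 21239361) stood at 9.42, 9.80 and 9.95 FPKM with overexpression and at 8.77, 9.22 and 9.86 FPKM in wild type. The groups overlapped, and the highest library exceeded the lowest 1.13-fold over all 6. For Keap1 the log2 fold change came to 0.062 (95% interval -0.085 to 0.21, limma adjusted p = 0.860). Exons of Keap1 overlap those of Gm16754, an antisense gene listed at 1.81 to 2.52 FPKM with overexpression and 2.55 to 3.37 FPKM in wild type. The use of strand in counting is not given in the sources used here, so reads of such pairs cannot be told apart.

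The 3 tested genes outside the set whose centred log2 values lay closest to those of Nfe2l2 over the 6 libraries were Rnf19a, Tbc1d13 and Pdrg1. Their root mean square differences from Nfe2l2 were 0.018, 0.020 and 0.023 on the log2 scale, among 11378 genes compared. Among the 9 other genes of the NRF2 set Keap1 was the nearest at 0.073 and Hmox1 the farthest at 0.50. This distance depends also on how much a gene varies, so it does not show which genes followed Nfe2l2. Keap1 had the smallest log2 range of the set over the libraries, 0.16, and Hmox1 the largest, 1.29. Nfe2l2 was lowest in overexpression replicate 1, where Txnrd1 and Prdx1 were highest. In wild type replicate 3, where Hmox1, Gclc, Gclm, Srxn1 and Nqo1 were highest, Nfe2l2 stood at 27.6 FPKM, below only overexpression replicate 3.

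Hmox1 and Nqo1 are the textbook reporters of NRF2 activity. Hmox1 encodes haem oxygenase 1, which breaks haem down to biliverdin, iron and carbon monoxide. It stood at 24.7, 14.4 and 15.0 FPKM in overexpression replicates 1, 2 and 3 and at 14.8, 15.1 and 36.5 FPKM in wild type replicates 1, 2 and 3 (ENSMUSG00000005413, chromosome 8, 75093621 to 75100589). A single library was high in each group, and the other 4 lay within 14.4 to 15.1 FPKM. Overexpression replicate 1 held 1.68 times the mean of overexpression replicates 2 and 3, and wild type replicate 3 held 2.44 times the mean of wild type replicates 1 and 2. The group means were 18.0 ± 5.78 and 22.1 ± 12.5 FPKM with overexpression and in wild type (SD, n = 3). Its log2 fold change of -0.20 had the widest interval of the set, -1.07 to 0.68 (limma adjusted p = 0.923). At this spread a 2-fold lower level with overexpression was not excluded. Nqo1 (ENSMUSG00000003849, chromosome 8, 107388225 to 107403206) encodes NAD(P)H quinone dehydrogenase 1, which reduces quinones by transfer of an electron pair. It stood at 52.3, 51.5 and 46.9 FPKM with overexpression and at 45.8, 44.0 and 56.1 FPKM in wild type. Wild type replicate 3 was again the highest library, but the range over all 6 was only 1.27-fold, against 2.54-fold for Hmox1. For Nqo1 the log2 fold change came to 0.053 (95% interval -0.19 to 0.29, limma adjusted p = 0.925).

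Gclc and Gclm encode the catalytic and the modifier subunit of glutamate-cysteine ligase, the rate-limiting enzyme of glutathione synthesis. Gclm (ENSMUSG00000028124, chromosome 3, 122245557 to 122270732) stood at 17.7, 10.9 and 11.2 FPKM in overexpression replicates 1, 2 and 3 and at 10.7, 10.8 and 22.1 FPKM in wild type replicates 1, 2 and 3. As for Hmox1, 4 libraries lay close together, within 10.7 to 11.2 FPKM, and the same 2 stood above them. Gclc (ENSMUSG00000032350, chromosome 9, 77754535 to 77794485) stood at 28.7, 22.5 and 25.0 FPKM with overexpression and at 20.3, 21.7 and 35.2 FPKM in wild type. Overexpression replicate 1 held 1.59 times the mean of the other overexpression libraries for Gclm and 1.21 times for Gclc. Wild type replicate 3 held 2.05 times the mean of the other wild type libraries for Gclm and 1.67 times for Gclc. The FPKM of Gclm was 0.616, 0.487 and 0.449 of that of Gclc with overexpression and 0.526, 0.499 and 0.628 of it in wild type. The modifier subunit was thus highest relative to the catalytic one in the 2 libraries where both were high. Neither gene passed the test, with log2 fold changes of -0.076 for Gclm (95% interval -0.79 to 0.64, limma adjusted p = 0.967) and 0.016 for Gclc (95% interval -0.47 to 0.50, limma adjusted p = 0.994). Exons of Gclm overlap those of Gm17494 on the other strand, which was listed at 0.106 to 0.353 FPKM over all libraries. They also overlap Gm6061, a processed pseudogene on the same strand that is not analysed here.

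Txnrd1, Srxn1 and Prdx1 act in the thioredoxin and peroxiredoxin cycle. Txnrd1 encodes thioredoxin reductase 1, a selenoprotein that keeps cytosolic thioredoxin reduced. It stood at 85.9, 54.8 and 54.2 FPKM in overexpression replicates 1, 2 and 3 and at 55.0, 55.1 and 75.3 FPKM in wild type replicates 1, 2 and 3 (ENSMUSG00000020250, chromosome 10, 82833951 to 82897712). Here overexpression replicate 1 was the higher of the 2 raised libraries, at 1.58 times the mean of overexpression replicates 2 and 3, and the other 4 libraries lay within 54.2 to 55.1 FPKM. Srxn1 (ENSMUSG00000032802, chromosome 2, 152105516 to 152111376) encodes sulfiredoxin, which restores overoxidised peroxiredoxins. Its levels were 41.9, 34.6 and 32.6 FPKM with overexpression and 30.1, 32.2 and 46.3 FPKM in wild type. Prdx1 (ENSMUSG00000028691, chromosome 4, 116685544 to 116700822) encodes a cytosolic peroxiredoxin that reduces hydrogen peroxide, and was the most abundant of the 10 genes. It stood at 246, 199.9 and 192 FPKM with overexpression and at 194, 199.7 and 241 FPKM in wild type. For Prdx1, overexpression replicate 1 held 1.26 times the mean of the rest of its group and wild type replicate 3 held 1.23 times. The log2 fold changes were 0.053 for Txnrd1 (95% interval -0.44 to 0.55, limma adjusted p = 0.967), 0.023 for Srxn1 (-0.39 to 0.43, limma adjusted p = 0.985) and 0.0061 for Prdx1 (-0.29 to 0.30, limma adjusted p = 0.997).

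G6pdx, on the X chromosome (ENSMUSG00000031400, 74409483 to 74429194), encodes glucose-6-phosphate dehydrogenase, which opens the pentose phosphate pathway and supplies the NADPH that the glutathione and thioredoxin systems use. It stood at 25.5, 21.6 and 21.1 FPKM in overexpression replicates 1, 2 and 3 and at 20.2, 20.4 and 20.1 FPKM in wild type replicates 1, 2 and 3. All 3 overexpression libraries lay above all 3 wild type libraries. Wild type replicate 3, high for the targets above, was not raised for G6pdx and lay close to the other wild type libraries. The means were 22.7 ± 2.42 FPKM with overexpression and 20.2 ± 0.191 FPKM in wild type (SD, n = 3). The log2 fold change of 0.16 (standard error 0.079, 95% interval -0.031 to 0.34) did not pass the test (limma adjusted p = 0.842). Without overexpression replicate 1 it was 0.074. Exons of G6pdx overlap those of Ikbkg on the other strand. Ikbkg stood at 5.25, 5.80 and 6.38 FPKM with overexpression and at 6.01, 6.09 and 10.8 FPKM in wild type. It was thus highest in wild type replicate 3, where G6pdx differed little from the other wild type libraries.

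Between genes, FPKM is a level per transcript length, and the mean over the 6 libraries ordered the set as follows. Prdx1 led at 212 ± 24.7 FPKM and did not overlap the next gene in any library. Txnrd1 at 63.4 ± 13.7, Nqo1 at 49.4 ± 4.58 and Srxn1 at 36.3 ± 6.38 FPKM came next. Over the 6 libraries the ranges of each neighbouring pair among them overlapped, while Srxn1 lay above Nfe2l2 without overlap. Within each library Txnrd1 still exceeded Nqo1, and Nqo1 exceeded Srxn1. Nfe2l2 at 26.8 ± 1.71, Gclc at 25.6 ± 5.56, G6pdx at 21.5 ± 2.06, Hmox1 at 20.1 ± 8.97 and Gclm at 13.9 ± 4.84 FPKM followed (SD over 6 libraries). Their neighbours overlapped as well, though Gclc exceeded G6pdx and Hmox1 exceeded Gclm within each library. Keap1 at 9.50 ± 0.458 FPKM lay below every other gene of the set in every library. The ratio of the highest to the lowest library had a median of 1.41 over the 10 genes and 1.27 over all tested genes. Within overexpression it was 1.28 over the 10 genes and 1.17 over all tested genes, and within wild type 1.32 and 1.15.

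The sign of the group difference depended on which libraries were included, the 2 high ones and others. Without overexpression replicate 1, 6 of 10 estimates were below 0, from -0.43 for Hmox1 to -0.072 for Gclc, and the median was -0.076. Without wild type replicate 3, all 10 estimates were above 0, from 0.027 for Nfe2l2 to 0.26 for Gclc, and the median was 0.18 beside 0.0088 over all genes. None passed (lowest limma adjusted p = 0.325), although 2 genes outside the set did. Without wild type replicate 1, 6 of 10 estimates were below 0 (median -0.038), and without wild type replicate 2, 8 of 10 were (median -0.026). With all 6 libraries 8 of 10 estimates were above 0, but this count was 2 after rescaling to equal sums of FPKM, 4 after rescaling to equal upper quartiles and 3 after quantile normalization. Overexpression replicate 1 also had the fewest reads and the lowest summed fibroblast markers of its group, and wild type replicate 3 had the lowest of both in wild type. Single markers did not all follow the sum. Col1a1, Col1a2, Col3a1, Fn1, Pdgfra, Pdgfrb and Dcn were lowest of their group in both libraries. Vim and S100a4 were highest of wild type in replicate 3, and Thy1 was highest of its group in overexpression replicate 1. Reads were 16942046 in overexpression replicate 1, against 21808113 and 18666449 in the other overexpression libraries. They were 18970895 in wild type replicate 3, against 19943767 and 20901822 in the other wild type libraries. The part of depth and of fibroblast markers in these levels was not tested.

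**Figure D2:**
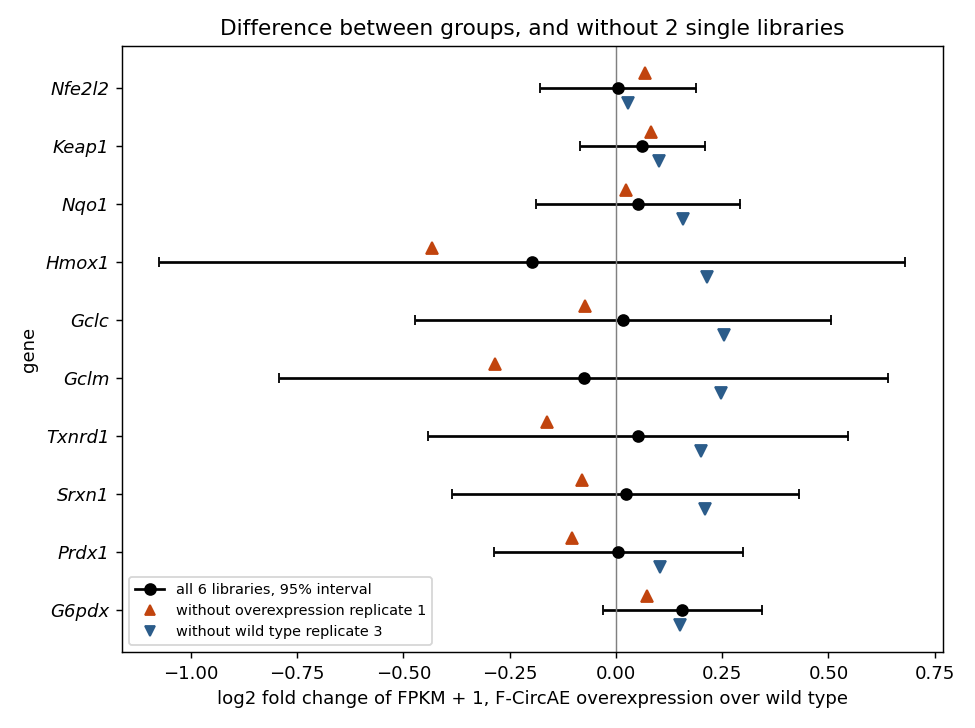
Log2 fold change of FPKM + 1 (horizontal axis, overexpression over wild type) for each of the 10 genes with all 6 libraries (black, 95% interval), without overexpression replicate 1 (triangles pointing up) and without wild type replicate 3 (triangles pointing down). Every 95% interval spans 0, and 6 genes lie below 0 without the first library while all 10 lie above 0 without the second.

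RefSeq promoter windows on GRCm38.p6, from 250 bases before to 50 after a transcript start, were found for 8 of the 10 genes in 10 windows. Hmox1 and Gclc were not matched. The core of the antioxidant response element, searched as TGACNNNGC on both strands, occurred in 6 of the 8 genes, namely Nfe2l2, Gclm, Txnrd1, Srxn1, Prdx1 and G6pdx. It occurred in 14.0% of 27025 genes with such a window, and in 12.4% of 32851 windows against 6 of the 10 windows here. A second motif of the same length, TGANTCAGC, was searched after the sequences had been seen. It was found for Srxn1 and Prdx1, and in 1.37% of all genes with a window. In Prdx1 the 2 motifs were matched at the same bases. Both TGANTCAGC matches also hold TGAGTCA, a site of the transcription factor AP-1. Any match with C or G at N holds this site by its letters alone, so this is no separate result. Searched as TGACTCA or TGAGTCA, the AP-1 site occurred in 5.20% of the 32851 windows. Windows with a match are shown for 4 targets that were high in the same 2 libraries, with TGACNNNGC or TGANTCAGC matches in capitals. They are Gclm (chr3:122245307-122245606, + strand), Txnrd1 (chr10:82858956-82859255, + strand), Srxn1 (chr2:152105274-152105573, + strand) and Prdx1 (chr4:116685349-116685648, + strand).
Gclm: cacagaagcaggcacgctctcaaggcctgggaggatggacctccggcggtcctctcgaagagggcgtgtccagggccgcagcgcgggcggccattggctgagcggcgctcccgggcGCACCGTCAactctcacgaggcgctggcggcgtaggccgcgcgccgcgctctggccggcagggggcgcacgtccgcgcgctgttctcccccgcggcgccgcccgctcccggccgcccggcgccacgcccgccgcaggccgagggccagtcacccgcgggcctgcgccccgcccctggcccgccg
Txnrd1: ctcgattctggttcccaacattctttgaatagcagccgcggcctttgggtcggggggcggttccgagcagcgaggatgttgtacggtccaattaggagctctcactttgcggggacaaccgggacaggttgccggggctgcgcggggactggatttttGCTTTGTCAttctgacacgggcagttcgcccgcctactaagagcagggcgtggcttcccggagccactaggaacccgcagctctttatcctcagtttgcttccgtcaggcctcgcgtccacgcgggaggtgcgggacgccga
Srxn1: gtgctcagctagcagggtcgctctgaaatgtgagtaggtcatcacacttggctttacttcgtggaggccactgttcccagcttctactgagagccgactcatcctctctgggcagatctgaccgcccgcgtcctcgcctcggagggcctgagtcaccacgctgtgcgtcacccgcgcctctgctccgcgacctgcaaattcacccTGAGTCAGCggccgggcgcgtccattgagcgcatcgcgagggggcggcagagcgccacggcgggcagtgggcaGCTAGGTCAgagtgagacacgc
Prdx1: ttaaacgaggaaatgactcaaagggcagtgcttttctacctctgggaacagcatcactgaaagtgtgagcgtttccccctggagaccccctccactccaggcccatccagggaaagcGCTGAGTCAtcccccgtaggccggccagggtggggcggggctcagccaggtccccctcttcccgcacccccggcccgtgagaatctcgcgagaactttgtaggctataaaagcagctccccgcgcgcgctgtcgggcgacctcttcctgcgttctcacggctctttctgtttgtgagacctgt

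In these windows the TGACNNNGC match began 134 bases before the start in Gclm, 92 before it in Txnrd1 and 133 before it in Prdx1, and 29 bases into the transcript in Srxn1, where the TGANTCAGC match began 45 bases before the start. Windows of Keap1 and Nqo1 held neither motif, which says only that these letters are absent from these bases. The other windows of Txnrd1 held neither motif as well. Nqo1 was high in the same 2 libraries without a match, while Nfe2l2 and G6pdx held a match without that pattern. Whether the motifs go with the pattern was not tested. A match is a string of letters and was not tested for binding.

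A wider list of 95 NRF2 partners, further reported targets and neighbouring redox genes was read from the same fit. Of these, 92 were listed in the tables and 81 were tested. None was called (0 of 81, limma adjusted p), and 6 had an unadjusted p below 0.05, 2 higher and 4 lower with overexpression, beside 5.17% of all tested genes. The median log2 fold change was 0.026, with 45 estimates above 0 and 36 below, beside 0.0084 over all tested genes. The libraries of the groups did not overlap for 8 genes that were higher with overexpression and 7 that were lower, beside 6.81% and 4.69% of all tested genes. Overexpression replicate 1 and wild type replicate 3 were the 2 highest libraries in 21 of the 81 genes (25.9%). They were the 2 lowest in 12 (14.8%), where all tested genes gave 13.1% and 15.2%. Whether the groups of the list differ in this was not tested. The counts (highest, lowest) were 9 and 5 of 23 glutathione genes and 3 and 0 of 8 haem and iron genes. They were 3 and 3 of 13 thioredoxin genes, 2 and 2 of 7 NADPH supply genes and 2 and 2 of 14 NRF2 partners. Detoxifying enzymes gave 1 and 0 of 12, and catalase with the superoxide dismutases 1 and 0 of 4.

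Of the 16 genes that control NRF2 or work with it, 14 were tested and 0 were called. Cul3, the scaffold of the KEAP1 ligase, stood at 28.5, 26.9 and 25.3 FPKM with overexpression and at 26.2, 26.9 and 25.5 FPKM in wild type, so the groups overlapped. Bach1, a repressor that competes for antioxidant response elements, reached -0.097 on the same scale (limma adjusted p = 0.850). The small MAF partners Mafg and Mafk had log2 fold changes of -0.13 and -0.024. Mafg was highest in wild type replicate 3, at 33.0 FPKM, and lay within 24.0 to 26.5 FPKM in the other 5 libraries. Sqstm1, which encodes the p62 adaptor that sequesters KEAP1 and is itself an NRF2 target, stood at 122, 121.7 and 116 FPKM with overexpression and at 130.5, 129 and 163 FPKM in wild type. Its groups did not overlap, yet the log2 fold change of -0.22 did not pass (95% interval -0.46 to 0.015, limma adjusted p = 0.842). Without wild type replicate 3 it was -0.11. Syvn1, a ubiquitin ligase, also lay lower without overlap, at -0.13. In the other direction Rbx1, the RING subunit of the KEAP1 ligase, Dpp3, which binds KEAP1, and Park7 lay higher without overlap, at 0.14, 0.089 and 0.15, and none passed (limma adjusted p = 0.842, 0.843 and 0.842).

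In the glutathione group 23 of 31 genes were tested and 0 called, 13 with estimates above 0 and 10 below. In 9 of the 23 (39.1%) the 2 highest libraries were overexpression replicate 1 and wild type replicate 3. In 5 of the 23 (21.7%) these were the 2 lowest, beside 13.1% and 15.2% of all tested genes. The lowest estimate was that of Gsta1, a glutathione S-transferase, at -0.38 (95% interval -2.16 to 1.40, limma adjusted p = 0.927). It stood at 3.83, 1.94 and 2.91 FPKM with overexpression and at 1.58, 1.57 and 17.4 FPKM in wild type. Wild type replicate 3 thus held 11.1-fold more Gsta1 than the mean of wild type replicates 1 and 2. The highest estimate was that of Chac1, which encodes an enzyme that degrades glutathione, at 0.30 (limma adjusted p = 0.881). Leaving out single libraries gave 0.054 (without wild type replicate 1) to 0.76 (without wild type replicate 3, limma adjusted p = 0.150) for Chac1. Chac1 stood at 15.9, 18.9 and 14.6 FPKM with overexpression and at 8.93, 9.64 and 25.3 FPKM in wild type. Slc7a11, the cystine importer, was named after its values were seen. It stood at 1.56, 0.938 and 1.27 FPKM with overexpression and at 0.972, 0.938 and 2.99 FPKM in wild type.

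All 13 genes of the thioredoxin group were tested, and 0 were called. Txn1, which encodes cytosolic thioredoxin, had the highest estimate at 0.17 (limma adjusted p = 0.843), with 805, 700.03 and 647 FPKM in overexpression libraries and 603, 623 and 680 FPKM in wild type libraries. Txnip, which encodes an inhibitor of thioredoxin, had the lowest at -0.59 (95% interval -1.48 to 0.30, limma adjusted p = 0.843). Without overexpression replicate 1 it was -0.18, and without overexpression replicate 3 it was -0.93. It stood at 32.3, 64.4 and 93.2 FPKM with overexpression and at 99.3, 102 and 66.3 FPKM in wild type. Txnip was lowest in overexpression replicate 1, and within wild type it was lowest in replicate 3. Txnrd1 was high in both of these libraries. The 13 genes of the group went both ways, with these 2 libraries the highest in 3 genes and the lowest in 3. Among the 7 genes of NADPH supply 6 estimates were above 0 and 1 below, beside 53.2% above 0 over all tested genes. Groups did not overlap for 2 genes higher with overexpression and 1 lower, beside 6.81% and 4.69% of all tested genes. Pgd, of the pentose phosphate pathway, had the highest estimate at 0.18 and Pgls, of the same pathway, the lowest at -0.081 (limma adjusted p = 0.843 each). Pgd stood at 31.3, 26.2 and 23.6 FPKM with overexpression and at 21.8, 22.0 and 27.1 FPKM in wild type. Its 2 highest libraries were again overexpression replicate 1 and wild type replicate 3. Among the 7 genes these were the 2 highest in 2 and the 2 lowest in 2.

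Haem and iron genes had 8 tested members, none called. Fth1, the ferritin heavy chain, had the lowest estimate at -0.16 (95% interval -0.32 to -0.0077, limma adjusted p = 0.842). Its level was 1685, 1739 and 1861 FPKM with overexpression and 1976, 2024 and 1914 FPKM in wild type, without overlap. Hmox2, the constitutive haem oxygenase, had the highest estimate at 0.091. Of the detoxifying enzymes 12 were tested and 0 called. Aldh3a1, an aldehyde dehydrogenase, had the lowest estimate of the wider list at -0.98 (95% interval -2.09 to 0.13, limma adjusted p = 0.842). Without overexpression replicate 1 it was -0.52, and without wild type replicate 3 it was -0.60. It stood at 24.9, 61.3 and 73.2 FPKM in overexpression replicates 1, 2 and 3 and at 73.9, 73.7 and 164 FPKM in wild type replicates 1, 2 and 3. For Aldh3a1 the 2 libraries that shared high levels of Hmox1 and Gclm were the lowest and the highest of all 6. Akr1b8, an aldo-keto reductase, had the highest estimate of its group at 0.15 (limma adjusted p = 0.842), and all 3 overexpression libraries lay above all 3 wild type libraries. Ces1g, a carboxylesterase listed with its small p already known, stood at 3.76, 4.09 and 5.07 FPKM with overexpression and at 6.75, 7.67 and 7.26 FPKM in wild type. It did not overlap between groups but did not pass (log2 fold change -0.64, 95% interval -0.88 to -0.40, limma adjusted p = 0.510). Among catalase and the superoxide dismutases 0 of 4 were called, with estimates from -0.26 for Sod3 to 0.034 for Cat.

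**Figure D3:**
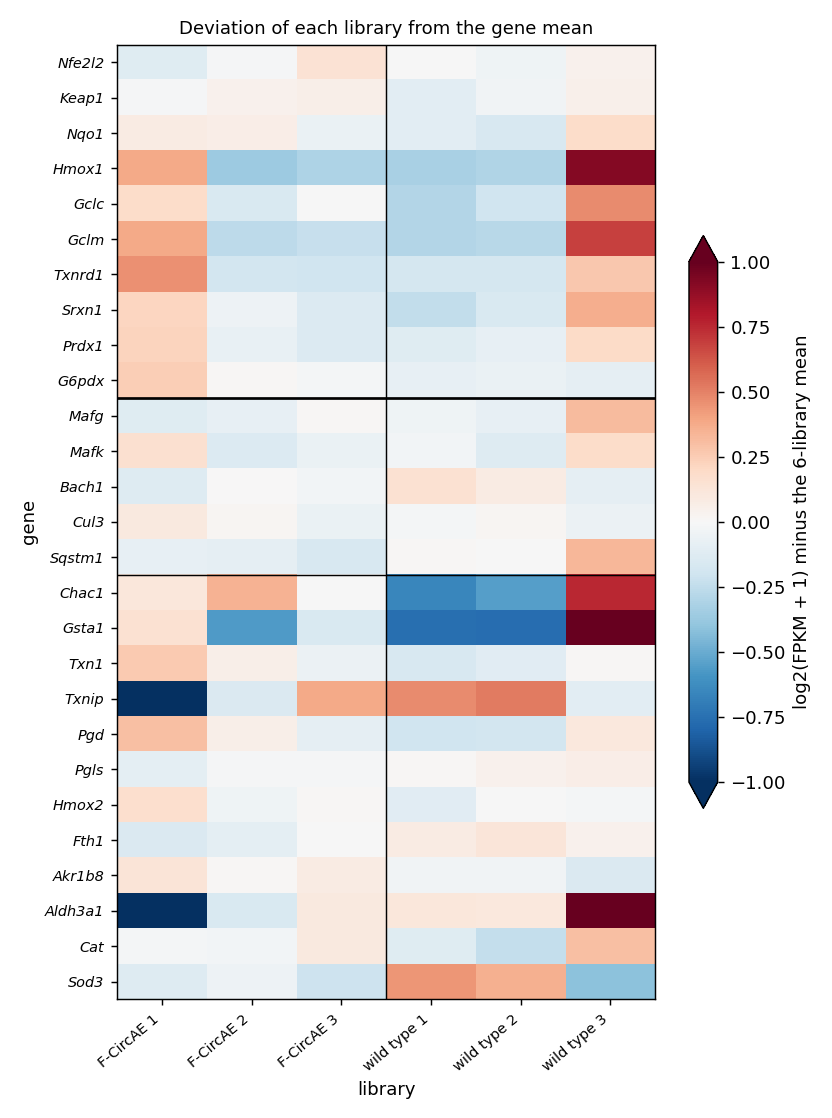
Log2(FPKM + 1) of each library (columns, F-CircAE overexpression left of wild type) minus the mean of the gene over the 6 libraries, for the 10 genes (above the thick line), 5 NRF2 partners (between the lines) and 12 genes with the highest or lowest estimate of their group. Red is above the mean and blue below it, and colours saturate at 1 and -1. Most NRF2 targets are red in F-CircAE 1 and wild type 3, whereas Aldh3a1 is blue in the first and red in the second.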

How the data were processed

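RNA was profiled in 6 NIH3T3 libraries, 3 with F-CircAE overexpression and 3 wild type, grouped by the genotype label. Per the labels' protocols, DNase I digestion and NEBNext Ultra library preparation preceded paired-end sequencing at 125 or 150 bp. Each deposited file holds FPKM per Ensembl gene, computed by the authors and named in the file headers. The genome build was mm10 per the submitters' processing notes. What aligner, counter, strand setting and annotation served is not given in the sources used here.

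Symbols came from GENCODE M21 (24816 of 24938 identifiers). Reads were recovered as whole multiples of the FPKM step within 0.01 reads (relative 1e-08), with exon union lengths for 19832 genes (79.5%) and a searched length for 5030, among them 4 of the 10 genes. The searched lengths are no independent check of those reads.

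Genes above 1 FPKM in at least 3 libraries were tested with limma 3.58.1 (R 4.3.3, trend and robust) on log2(FPKM + 1), which understates changes of low genes. Calls used a Benjamini-Hochberg adjusted p of 0.05.

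The 10 genes, the wider list and the rule for named genes were chosen with earlier results of these data known. The rule named the 10 genes, NRF2 partners, and the highest and lowest estimate of each other group of the wider list. Ces1g and Slc7a11 stand outside it, named after their values were seen. Catalase and the superoxide dismutases are in the list without being classical targets.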

Additional observations from a re-analysis of the deposited data

How the results depend on the processing

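No gene of the set of 10 was called under any of the 17 alternatives, and 0 genes in all were called except when single libraries were left out, where the count ran from 0 to 2. Without overexpression replicate 1 the count was 1, and without wild type replicate 3 it was 2. Pseudocounts of 0.1 and 5, no filter, a filter at 5 FPKM and limma-voom on recovered reads (planned with exon union lengths, which give reads for 6 of the 10 genes, and added with searched lengths after the data were seen) turned no sign. Signs of estimates near 0 turned with scaling. After rescaling to equal sums of FPKM the log2 fold changes were -0.056 for Nfe2l2, -0.011 for Nqo1, -0.046 for Gclc, -0.011 for Txnrd1, -0.040 for Srxn1, -0.058 for Prdx1, -0.028 for Cul3 and -0.028 for Cat. With equal upper quartiles they were -0.018 for Nfe2l2, -0.0079 for Gclc, -0.0014 for Srxn1 and -0.019 for Prdx1. With quantile normalization they were -0.025 for Nfe2l2, -0.018 for Gclc, -0.0085 for Txnrd1, -0.026 for Srxn1, -0.059 for Prdx1, -0.0017 for Cul3 and -0.0034 for Cat. With wild type replicates 1 and 2 averaged they were -0.0046 for Nfe2l2, -0.10 for Gclc, -0.021 for Txnrd1, -0.070 for Srxn1, -0.043 for Prdx1 and -0.046 for Cat. The cause was not tested. Leaving out single libraries gave ranges of -0.063 to 0.068 for Nfe2l2, -0.013 to 0.16 for Nqo1, -0.43 to 0.22 for Hmox1, -0.13 to 0.26 for Gclc, -0.29 to 0.25 for Gclm, -0.16 to 0.20 for Txnrd1, -0.093 to 0.21 for Srxn1 and -0.10 to 0.10 for Prdx1. They were -0.11 to 0.063 for Mafk, -0.0067 to 0.078 for Cul3, -0.85 to 0.57 for Gsta1 and -0.075 to 0.19 for Cat. Without a turn of sign, single libraries moved Mafg between -0.20 and -0.0011, Bach1 between -0.17 and -0.044, Txn1 between 0.085 and 0.24, Pgd between 0.077 and 0.28, Hmox2 between 0.028 and 0.14, Keap1 between 0.025 and 0.10 and Sod3 between -0.53 and -0.10.

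The replicate numbers are shared between the groups, but no label ties them to a batch. Deviations from the group means correlated at -0.10, 0.083 and 0.0025 for replicates 1, 2 and 3, and no overexpression library correlated best with its own number. With the replicate number as a block 0 genes and 0 of the 10 were called, with 444 genes at an unadjusted p below 0.05.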
